A study of Mus musculus with 6 samples.

Results

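The 10 genes described here encode the NF-kB transcription factor subunits and proteins that hold them back or switch them on. They were found by gene symbol among 37315 genes of the abundance table, and all 10 were present. The subunits were Nfkb1, Nfkb2, Rel, Rela and Relb. The classical inhibitors were Nfkbia and Nfkbie, and the other regulators were Tnfaip3, Bcl3 and Bcl10. Of the 10, 9 were also in the allele table of 19402 genes, and 8 had at least 20 allelic counts in each library. Bcl10 was the member without allelic counts, and Bcl3 was the member with too few.

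All 10 are protein-coding genes, given here with the positions of the deposited table. Those of 9 members match GENCODE M21 (GRCm38), and that of Nfkb2 differs from it. The subunit genes lie at chr3:135584655-135691547 (Nfkb1), chr19:46304737-46312090 (Nfkb2), chr11:23736847-23770970 (Rel), chr19:5637483-5648130 (Rela) and chr7:19606217-19629438 (Relb). The inhibitor genes lie at chr12:55489410-55492647 (Nfkbia) and chr17:45555703-45563169 (Nfkbie). The other regulators lie at chr10:19000910-19015657 (Tnfaip3), chr7:19808462-19822770 (Bcl3) and chr3:145922804-145934356 (Bcl10). Nfkb1 overlaps an unclassified annotated transcript on its own strand (Gm43430), whose reads could not be told apart from those of Nfkb1.

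NF-kB proteins act as pairs of subunits that sit in the cytoplasm until a signal removes their inhibitor. In the canonical route, an I-kB kinase complex marks inhibitors such as I-kB alpha (Nfkbia) for destruction, and pairs that contain RelA or c-Rel enter the nucleus. In the alternative route, the kinase NIK drives processing of the Nfkb2 precursor, and the processed subunit pairs with RelB. In B cells these routes carry signals for survival, maturation and activation, and several of the inhibitors are themselves NF-kB targets, which closes feedback loops.

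The cells were 3 clonal lines of immortalised B cells, Abl.2, Abl.3 and Abl.4, from F1 mice of the cross 129S1/SvImJ x CAST/EiJ. Abl.2 and Abl.4 were labelled female and Abl.3 male. All 3 lines were controls with 1% DMSO, a solvent, in the medium, and live cells were taken on day 2. Each line is 1 clone with 2 library preparations. Whether these came from 1 RNA sample or from separate cultures was not given in the sources used here, so SEs and p-values measure only the spread between these libraries, which may be technical. Line, clone and (for Abl.3) sex cannot be told apart. No other treatment, genotype or age was given in the sources used here.

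The 6 libraries held 18362319 to 26881211 allelic counts and 10660 to 11110 genes at 1 TPM or more. TPM is a transcript level corrected for gene length and library total, so it can be compared between genes, but it keeps no depth. All 10 B lineage markers were above a mean of 1 TPM, with summed levels of 17777 to 20199 TPM per library. Among them, Pax5 had 246 and 207 TPM in Abl.2, 56.2 and 64.0 TPM in Abl.3, and 156 and 165 TPM in Abl.4. Rag1 had the same order of lines, at 22.0 and 24.6, 4.39 and 5.34, and 9.84 and 12.9 TPM. Rag2 had the opposite order, at 17.0 and 21.2, 43.4 and 46.5, and 23.6 and 26.3 TPM. T and NK cell markers reached 1 TPM in 0 of 6 genes and stromal markers in 0 of 3. Of 6 myeloid markers, 2 reached 1 TPM (Lyz2 and Itgam), while Cd14 and Adgre1 were listed at 0. The summed myeloid level was 159 to 193 TPM in Abl.2, 75.0 to 97.2 TPM in Abl.3 and 77.9 to 89.4 TPM in Abl.4, and it was highest in the line where Tnfaip3, Relb and Nfkb2 were highest. Most of that sum was Lyz2, at 157.6 and 192.8 TPM in Abl.2, 96.5 and 73.8 TPM in Abl.3, and 82.5 and 70.8 TPM in Abl.4. Itgam had the opposite order, at 0.51 and 0.35 TPM in Abl.2, 0.72 and 0.97 TPM in Abl.3, and 6.89 and 6.74 TPM in Abl.4. The part of these B lineage and myeloid markers in the results below was not tested.

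The promoters of the family are shown first because NF-kB binds DNA at kB motifs and several members of the family carry such letters close to their start. RefSeq (GRCm38.p6) promoter sequences were matched by symbol for 8 of the 10 members, with 11 promoters in all, and the 250 bases before each start were searched on both strands. The classical kB motif was found in 8 of the 11 promoters, belonging to 6 of the 8 members. It was found in 3.9% of all 32851 promoters of that length. A looser form, GGGNNNNNCC, which contains every classical match, was in all 11 member promoters and in 45.8% of all promoters. The 30 bases around the classical match nearest the start are given for each of the 6 members, 5′ to 3′ on the gene's strand, with the match in capitals. They are the reference sequence, not that of either parental strain.
Nfkb2 (chr19:46304707-46304736, + strand): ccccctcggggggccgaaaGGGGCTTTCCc
Rel (chr11:23771041-23771070, - strand): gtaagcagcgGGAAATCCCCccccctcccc
Nfkbia (chr12:55492657-55492686, - strand): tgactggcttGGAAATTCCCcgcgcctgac
Nfkbie (chr17:45555584-45555613, + strand): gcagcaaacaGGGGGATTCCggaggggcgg
Tnfaip3 (chr10:19015411-19015440, - strand): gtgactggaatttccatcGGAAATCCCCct
Bcl10 (chr3:145924012-145924041, + strand): gcgaaggcgGGGAGATCCCgctaaactgag
In Rel, Nfkbia and Tnfaip3 the match is on the opposite strand, so it reads as its reverse complement here. In Rel another classical match, on the gene's own strand, overlaps the printed one. The printed match began 11 bases before the start in Nfkb2, 12 in Tnfaip3 and 29 in Nfkbia. It began farther away in Rel (91 bases), Nfkbie (106 bases) and Bcl10 (241 bases). Rela and Bcl3 had no classical match in the window. RefSeq starts need not coincide with the gene ends of the deposited table, and those of several members, Tnfaip3 and Bcl10 among them, lie inside the gene's span there. A match is a description of letters and was not set against any binding measurement.

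By the mean over all 6 libraries, Nfkbia was the most abundant member at a mean of 170 TPM, and Nfkb1 followed at 115 TPM. Rela had a mean of 89.4 TPM, Tnfaip3 68.5 TPM and Bcl10 48.5 TPM. Relb (26.9 TPM), Nfkb2 (26.0 TPM) and Nfkbie (21.7 TPM) formed a middle group, and Rel (10.0 TPM) and Bcl3 (3.96 TPM) were lowest. This order was not that of every line. In Abl.2 the mean of Tnfaip3 (149.5 TPM) was above those of Nfkb1 (128.5 TPM), Rela (102.4 TPM) and Bcl10 (47.1 TPM). In Abl.3 and Abl.4 it was below each of these. Relb and Nfkb2 were above Nfkbie in Abl.2 alone, and Bcl3 was above Rel in mean level in Abl.3. The spread across lines differed between members: Bcl10 stayed between 46.3 and 50.8 TPM in every library, while Tnfaip3 ran from 20.6 to 151.6 TPM.

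**Figure D1:**
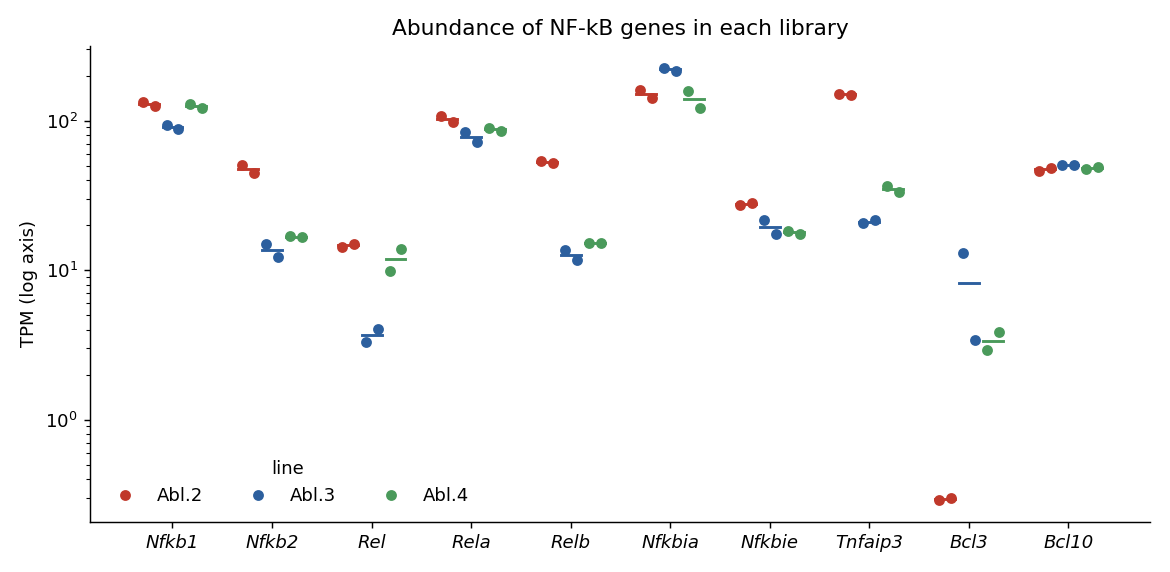
TPM of each NF-kB gene (log axis) in the 6 libraries, with points for libraries, short bars for the mean of the 2 libraries of a line, and colour for the line. Tnfaip3, Relb and Nfkb2 stand far higher in Abl.2 (means of 149.5, 52.7 and 47.7 TPM) than in Abl.3 and Abl.4, Rel is low in Abl.3 alone, and Bcl3 is lowest in Abl.2.

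Among the subunits, the alternative-route pair Relb and Nfkb2 was high in Abl.2 and low in both other lines. Relb had 53.7 and 51.8 TPM in the Abl.2 libraries, 13.7 and 11.7 TPM in Abl.3, and 15.3 and 15.2 TPM in Abl.4. The Abl.2 libraries stood apart from all others, and Abl.3 and Abl.4 lay close together. The ratio of mean levels was 4.15 for Abl.2 over Abl.3 and 3.46 for Abl.2 over Abl.4. On the log2(TPM + 1) scale the differences were 1.97 ± 0.11 (SE; adjusted p = 4.41e-05) and 1.73 ± 0.11 (adjusted p = 7.90e-05), by limma with Benjamini-Hochberg adjustment over 11003 genes. In bulk RNA, fewer cells with a transcript and less of it per cell cannot be told apart.

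Nfkb2, the gene of the precursor that the alternative route processes, had 50.6 and 44.8 TPM in Abl.2. It had 15.0 and 12.2 TPM in Abl.3 and 16.8 and 16.7 TPM in Abl.4. As for Relb, the Abl.2 libraries did not overlap the rest. Abl.2 exceeded Abl.3 by 1.75 ± 0.13 (SE, log2; adjusted p = 0.000149) and Abl.4 by 1.45 ± 0.13 (adjusted p = 0.000349). Between Abl.3 and Abl.4 the log2 difference was -0.29 for Nfkb2 (adjusted p = 0.111) and -0.25 for Relb (adjusted p = 0.109), and neither passed the threshold of 0.05. Under every alternative run, both genes kept their calls in the pairs with Abl.2.

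Nfkb1 and Rela had smaller differences between Abl.2 and the other lines than Relb and Nfkb2. Nfkb1, whose product is processed to the partner of RelA, had 132.8 and 124.2 TPM in Abl.2 and 129.7 and 120.4 TPM in Abl.4. Abl.3 lay lower, at 93.9 and 88.2 TPM, without overlap. Abl.2 exceeded Abl.3 by 0.49 ± 0.08 (SE, log2; adjusted p = 0.00451), and Abl.3 was below Abl.4 by -0.45 ± 0.08 (adjusted p = 0.00699). The latter call was lost without Abl.3 replicate 2 (-0.41, adjusted p = 0.0509). Between Abl.2 and Abl.4 the difference was 0.04 (adjusted p = 0.746), with overlapping libraries.

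Rela, the main activating subunit of the canonical route, had the narrowest range among the subunits. It measured 106.7 and 98.1 TPM in Abl.2, 84.3 and 72.0 TPM in Abl.3, and 89.6 and 85.7 TPM in Abl.4. The lines did not overlap in Rela, yet only the largest gap, Abl.2 over Abl.3, passed the test (0.39 ± 0.10, SE, log2; adjusted p = 0.0235). That call was lost in edgeR on summed allelic counts (0.21, adjusted p = 0.116), without Abl.2 replicate 1 (adjusted p = 0.130), without Abl.2 replicate 2 (adjusted p = 0.0659) and without Abl.3 replicate 2 (adjusted p = 0.123). The Abl.2 and Abl.4 levels differed by 0.22, which did not pass (adjusted p = 0.141), but did with replicate number as a block (adjusted p = 0.0446).

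Rel encodes c-Rel, the subunit tied to lymphocyte activation, and it separated Abl.3 from the others. Its level was 14.3 and 14.9 TPM in Abl.2, 3.31 and 4.05 TPM in Abl.3, and 9.85 and 13.8 TPM in Abl.4. Both Abl.3 libraries lay below the lowest of the other 4. Abl.2 exceeded Abl.3 by 1.74 ± 0.18 (SE, log2; adjusted p = 0.000661), and Abl.3 was below Abl.4 by -1.44 ± 0.18 (adjusted p = 0.00159). Both calls held under every alternative run. The difference between Abl.2 and Abl.4 was 0.30 (adjusted p = 0.241) and did not pass.

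The canonical inhibitor moved the other way. Nfkbia had 226.1 and 212.8 TPM in Abl.3, above 159.9 and 142.3 TPM in Abl.2 and 157.9 and 120.8 TPM in Abl.4. The Abl.3 libraries lay above all others, and those of Abl.2 and Abl.4 overlapped. Abl.3 exceeded Abl.4 by 0.66 ± 0.14 (SE, log2; adjusted p = 0.0107), and Abl.2 was below Abl.3 by -0.54 ± 0.14 (adjusted p = 0.0214). Both calls were lost when single libraries were left out, which leaves that line with 1 library and no spread of its own. Abl.3 against Abl.4 had an adjusted p of 0.0712 without Abl.3 replicate 1 and 0.0521 without Abl.3 replicate 2. Abl.2 against Abl.3 lost its call without any 1 of the 4 libraries of that pair, with adjusted p of 0.0624 and 0.129 without Abl.2 replicate 1 and replicate 2, and 0.112 and 0.0789 without those of Abl.3. It was also lost with no filter on low values (adjusted p = 0.0581).

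Nfkbie, which encodes I-kB epsilon, an inhibitor that holds c-Rel and RelA pairs, was highest in Abl.2. It had 27.1 and 28.1 TPM there, 21.5 and 17.4 TPM in Abl.3, and 18.3 and 17.4 TPM in Abl.4. The Abl.2 libraries did not overlap the rest, and the other lines overlapped each other. Abl.2 exceeded Abl.4 by 0.60 ± 0.12 (SE, log2; adjusted p = 0.0110) and Abl.3 by 0.49 ± 0.12 (adjusted p = 0.0197). Against Abl.4 the call was lost without Abl.2 replicate 1 (adjusted p = 0.0660), Abl.2 replicate 2 (0.0763) or Abl.4 replicate 2 (0.0630). Against Abl.3 it was lost without Abl.2 replicate 1 (adjusted p = 0.0865), Abl.2 replicate 2 (0.112) or Abl.3 replicate 2 (0.101), and after quantile normalisation (0.32, adjusted p = 0.0906). In edgeR on summed allelic counts the difference from Abl.3 was also 0.32 (0.0353), and Nfkbie passed between Abl.3 and Abl.4 (0.35, adjusted p = 0.0250).

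Tnfaip3 had the widest range on the log2(TPM + 1) scale among the 10 genes. It encodes A20, a ubiquitin-editing enzyme that shuts the canonical pathway off and is itself induced by it. The Abl.2 libraries had 151.6 and 147.4 TPM, those of Abl.3 20.6 and 21.6 TPM, and those of Abl.4 36.3 and 33.4 TPM. All 3 lines were separate. The mean for Abl.2 was 149.5 ± 2.98 TPM, that for Abl.3 21.1 ± 0.72 TPM and that for Abl.4 34.8 ± 2.04 TPM (SD, n = 2). Tnfaip3 in Abl.2 was 7.09 times its Abl.3 level and 4.29 times its Abl.4 level. The log2 differences were 2.77 ± 0.08 (SE; adjusted p = 5.87e-06) and 2.07 ± 0.08 (adjusted p = 1.74e-05), and Abl.3 was below Abl.4 by -0.70 ± 0.08 (adjusted p = 0.00145). All 3 calls held under every alternative run.

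Tnfaip3 lies on chromosome 10, whose genes were, at the median, more abundant in Abl.2 than in the other lines. Over 511 genes of chromosome 10, the median log2 abundance difference was 0.59 for Abl.2 against Abl.3 and 0.44 for Abl.2 against Abl.4. Over all genes tested it was 0.10 and -0.03. The Tnfaip3 differences of 2.77 and 2.07 exceeded those medians. On the chromosomes of the other members, the median difference lay between -0.07 and 0.16 for Abl.2 against Abl.3.

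The genes most like Tnfaip3 over the 6 libraries were Pde4b, Akr1c13 and Fam129c, each with a Pearson r of 0.998. None of them is on chromosome 10. Likeness was measured on log2(TPM + 1) among 1272 genes of at least 5 TPM whose line means ranged over at least 1, and 200 of these (15.7%) had an r of at least 0.9. The 6 points are pairs of libraries from 3 lines, so a gene high in Abl.2 alone scores high by this measure.

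Bcl3 encodes an atypical, nuclear I-kB protein that binds subunits on DNA. It had the lowest mean level over the 6 libraries, although in Abl.3 its mean of 8.22 TPM was above that of Rel (3.68 TPM). Abl.2 had 0.29 and 0.30 TPM, Abl.3 had 13.0 and 3.39 TPM, and Abl.4 had 2.92 and 3.83 TPM. The Abl.2 libraries lay below all others, while 1 Abl.3 library lay between the Abl.4 libraries. Abl.2 was below Abl.3 by -2.60 ± 0.50 (SE, log2; adjusted p = 0.00763) and below Abl.4 by -1.75 ± 0.50 (adjusted p = 0.0367). These sizes depend on the scale, since the Abl.2 level lies below the pseudocount of 1: at a pseudocount of 0.1 they were -4.10 and -3.13, and in edgeR on summed allelic counts -3.98 and -3.05. The first call was lost without Abl.2 replicate 1 (adjusted p = 0.0529) or replicate 2 (0.0530). The second was lost after quantile normalisation (adjusted p = 0.0824), with no filter on low values (0.0983), and without any 1 library of its pair (0.111 to 0.174). Abl.3 against Abl.4 did not pass (0.85, adjusted p = 0.218), and its size rested on 1 library: it was 1.69 without Abl.3 replicate 2 (adjusted p = 0.00882) and 0.01 without Abl.3 replicate 1 (adjusted p = 0.976). The Abl.2 libraries held 4 and 5 allelic counts for Bcl3. Bcl3 overlaps 2 antisense genes (Gm16174 and Gm16175), and whether counting used strand was not given in the sources used here.

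Bcl10, an adaptor that links antigen receptor signals to the I-kB kinases, was the flattest member. Its levels were 46.3 and 47.9 TPM in Abl.2, 50.2 and 50.8 TPM in Abl.3, and 47.4 and 48.6 TPM in Abl.4. Its log2 differences were -0.10 (adjusted p = 0.348), -0.03 (0.821) and 0.07 (0.488) in the 3 pairs. Bcl10 did not pass in any pair under any alternative run.

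Counted together, 9 of the 10 members passed between Abl.2 and Abl.3, where 39.8% of all genes passed. Of these, 7 were higher in Abl.2 (all 5 subunits, Nfkbie and Tnfaip3; 25.9% of all genes were higher) and 2 were lower (Nfkbia and Bcl3; 14% of all genes). Between Abl.2 and Abl.4, 5 of 10 passed, against 33.5% of all genes: Nfkb2, Relb, Nfkbie and Tnfaip3 were higher in Abl.2 (15% of all genes) and Bcl3 was lower (18.4%). Between Abl.3 and Abl.4, 4 of 10 passed, against 38.1% of all genes, which is near the background. There Nfkbia was higher in Abl.3 (11.3% of all genes) and Nfkb1, Rel and Tnfaip3 were lower (26.8%). The members' median log2 difference was 0.49 for Abl.2 against Abl.3, 0.26 for Abl.2 against Abl.4 and -0.21 for Abl.3 against Abl.4, beside 0.10, -0.03 and -0.15 over all genes. The 3 comparisons share libraries and are not independent. The count between Abl.2 and Abl.3 fell to 5 without Abl.2 replicate 1 or replicate 2, where 23.1% and 22.4% of all genes passed. That between Abl.2 and Abl.4 fell to 3 without Abl.2 replicate 1, Abl.2 replicate 2 or Abl.4 replicate 2, where 17.9%, 18.9% and 23.6% of all genes passed.

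**Figure D2:**
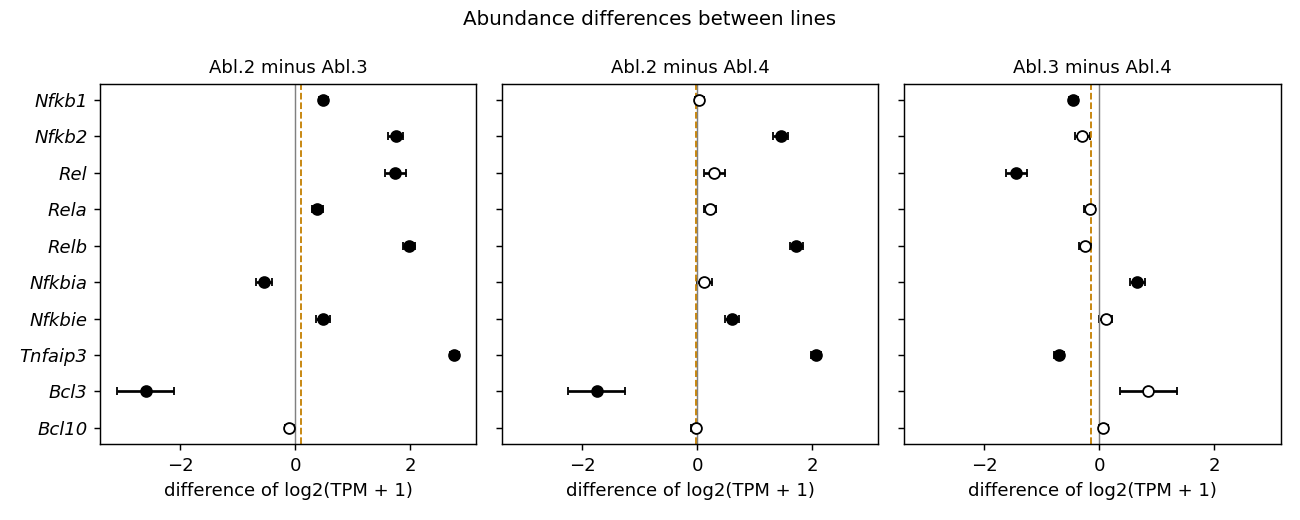
Differences of log2(TPM + 1) between lines for each member, with bars for the standard error, filled points for adjusted p below 0.05 and open points otherwise. The dashed line is the median of all 11003 genes. Tnfaip3, Relb and Nfkb2 lie between 1.45 and 2.77 in both panels with Abl.2, Bcl3 lies at -2.60 and -1.75, and Bcl10 stays within 0.10 of 0.

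Ratios within a library, which do not depend on scaling between libraries, showed the same shift in makeup. The level of Relb relative to Rela was 0.503 and 0.528 in Abl.2, and 0.162 to 0.177 in the other 4 libraries. Nfkb2 relative to Nfkb1 was 0.381 and 0.361 in Abl.2, and 0.130 to 0.159 elsewhere. Rel relative to Rela was 0.0393 and 0.0562 in Abl.3 and 0.110 to 0.161 in the other lines. Tnfaip3 relative to Nfkbia was 0.948 and 1.04 in Abl.2, 0.0909 and 0.101 in Abl.3, and 0.230 and 0.276 in Abl.4. In Abl.2 the inhibitor enzyme transcript was thus about as abundant as that of I-kB alpha.

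The cross of distant strains allows each transcript to be assigned to the maternal or the paternal allele. The maternal share is the part of a gene's allelic counts that came from the maternal allele, and 0.5 means equal expression. The 8 members tested had 364 to 14948 allelic counts per library. Every member's mean share lay between 0.317 and 0.671 in every line, and no member reached the strong bias of at most 0.1 or at least 0.9. Members with unequal alleles numbered 3 of 8 in Abl.2 (49.1% of all genes were unequal), 5 of 8 in Abl.3 (45.1%) and 4 of 8 in Abl.4 (39.9%), so the members' counts were near the background. The count was 1 of 8 in Abl.2 without Abl.2 replicate 1 (37.5% of all genes), and 3 of 8 in Abl.3 without Abl.3 replicate 1 or replicate 2 (31.3% and 31.9%).

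Tnfaip3 was tilted to the paternal allele in all 3 lines. Its maternal share was 0.314 and 0.321 in the Abl.2 libraries, 0.436 and 0.433 in Abl.3, and 0.374 and 0.434 in Abl.4. The Abl.2 libraries lay below all others. The 95% Wilson intervals of the Abl.2 libraries, which cover counting error only, were 0.307 to 0.322 and 0.313 to 0.328. The log2 ratio of maternal to paternal was -1.10 ± 0.07 in Abl.2 (SE; adjusted p = 2.31e-07), -0.38 ± 0.08 in Abl.3 (adjusted p = 0.00387) and -0.56 ± 0.08 in Abl.4 (adjusted p = 0.000227), in the quasi-likelihood test of edgeR, adjusted by Benjamini-Hochberg over 8702 genes. The Abl.3 call was lost without Abl.3 replicate 1 (adjusted p = 0.0513) or replicate 2 (0.0519).

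The lower share of Tnfaip3 in Abl.2 was shared by its chromosome. The median maternal share of 431 tested genes on chromosome 10 was 0.337 in Abl.2 but 0.503 in Abl.3 and 0.504 in Abl.4. Of these genes, 294 (68.2%) had a share from 0.25 to 0.40 in Abl.2. The 12 tested neighbours within 2 Mb of Tnfaip3 had a median share of 0.322 there, with a range of 0.00862 to 0.997. The log2 allele ratio of Tnfaip3 was lower in Abl.2 by -0.72 ± 0.11 than in Abl.3 (SE; adjusted p = 0.000381) and by -0.54 ± 0.11 than in Abl.4 (adjusted p = 0.00296). The chromosome's median differences were -0.99 and -0.98, and 82.8% and 81.9% of its genes passed in those pairs. Between Abl.3 and Abl.4 the Tnfaip3 shares did not pass, except without Abl.4 replicate 2 (0.36, adjusted p = 0.0262).

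**Figure D3:**
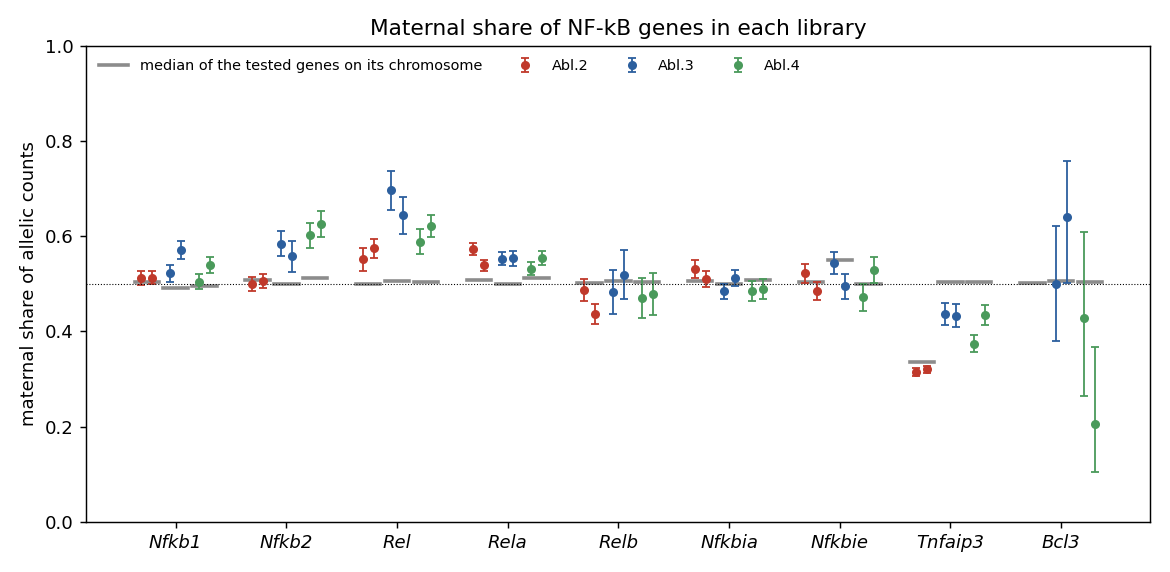
Maternal share of allelic counts for the 9 members with such counts, with a point for each library of at least 20 counts, 95% Wilson intervals and grey bars for the median of the tested genes on the member's chromosome in that line. Tnfaip3 in Abl.2 (0.314 and 0.321) sits beside its chromosome's lowered median of 0.337, whereas Rel lies above its chromosome's median in all 6 libraries.

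Rel and Rela were tilted to the maternal allele in all 3 lines. The share of Rel was 0.551 and 0.574 in Abl.2, 0.698 and 0.645 in Abl.3, and 0.589 and 0.622 in Abl.4, with adjusted p of 0.0148, 0.000101 and 0.00105 in edgeR. Chromosome 11, where Rel lies, had median shares of 0.500 to 0.505. The Abl.3 shares of Rel were the highest and did not overlap the others. The allele ratio of Rel did not pass as different between Abl.3 and Abl.4 (0.40, edgeR, adjusted p = 0.152). Abl.3 was also the line with the lowest level of Rel, and a link between level and share was not tested. The Abl.2 call of Rel was lost in DESeq2 (adjusted p = 0.0579), at a null set by the library's allele totals (0.0738), and without Abl.2 replicate 1 (0.0654) or replicate 2 (0.219).

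Rela had shares of 0.573 and 0.539 in Abl.2, 0.553 and 0.553 in Abl.3, and 0.532 and 0.555 in Abl.4. The lines overlapped and all 6 libraries were above 0.5. The log2 ratios of Rela were 0.32 (adjusted p = 0.00148), 0.31 (0.00322) and 0.25 (0.0110), and that of Abl.2 was 0.21 at a null set by the library's allele totals (0.0198). The Abl.2 call was lost without Abl.2 replicate 1 (adjusted p = 0.0744), and the Abl.4 call without Abl.4 replicate 2 (0.134).

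Nfkb2 was even in Abl.2 and tilted to the maternal allele in Abl.3 and Abl.4. Its share was 0.499 and 0.505 in Abl.2, 0.584 and 0.557 in Abl.3, and 0.602 and 0.626 in Abl.4. Each line's libraries were separate from the others'. The allele ratios of Abl.3 and Abl.4 differed by -0.25 (log2), which did not pass (edgeR, adjusted p = 0.238). The imbalance passed in Abl.3 (adjusted p = 0.00346) and Abl.4 (adjusted p = 0.000149) but not in Abl.2 (0.917). The Abl.3 call was lost without Abl.3 replicate 1 (adjusted p = 0.0815). Nfkb2 overlaps Psd and a noncoding gene on the other strand, from which unstranded counts could not be separated.

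Relb, the partner of the Nfkb2 product, did not show this tilt. Its mean share was 0.461 ± 0.036 for Abl.2, 0.501 ± 0.026 for Abl.3 and 0.474 ± 0.0055 for Abl.4 (SD, n = 2), with adjusted p of 0.143, 0.999 and 0.423. At a null set by each library's allele totals, Relb passed in Abl.2 (-0.34, adjusted p = 0.0305). Nfkbia had mean shares of 0.521, 0.498 and 0.487 and Nfkbie 0.503, 0.520 and 0.500, none of which passed. Nfkb1 passed in Abl.3 alone, at 0.546 ± 0.035 (SD, n = 2; adjusted p = 0.0240). That call rested on Abl.3 replicate 2: the log2 ratio was 0.13 without it (adjusted p = 0.389) and 0.41 without replicate 1 (0.0163), and it was lost in DESeq2 (0.0531). Bcl3 had 62 and 50 allelic counts in Abl.3, with shares of 0.5 and 0.64, and 28 and 34 counts in Abl.4, with shares of 0.429 and 0.206. Its Wilson intervals in Abl.4, 0.265 to 0.609 and 0.103 to 0.368, show how little this depth resolves, and it was not tested.

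The difference of allele ratios between lines was tested directly. Between Abl.2 and Abl.3, 3 of 8 members passed, which is near the background, as 28.4% of all genes passed. These were Tnfaip3, Rel (-0.66 ± 0.17, SE; adjusted p = 0.0124) and Nfkb2 (-0.40 ± 0.12, adjusted p = 0.0266), all with a lower maternal share in Abl.2 (13% of all genes). Between Abl.2 and Abl.4, 2 of 8 passed, against 22.3% of all genes (9.61% with a lower share in Abl.2): Tnfaip3 and Nfkb2 (-0.66 ± 0.12, adjusted p = 0.00166). This count was also near the background. Between Abl.3 and Abl.4, 0 of 8 passed in edgeR (16.5% of all genes) and 0 in DESeq2 (13.1%), and 1 had an unadjusted p under 0.05. Without Abl.4 replicate 2, 1 of 8 passed in that pair (14.8% of all genes). Between Abl.2 and Abl.3, Nfkb2 was lost in DESeq2 (adjusted p = 0.0685), without Abl.2 replicate 1 (0.153), Abl.2 replicate 2 (0.103) or Abl.3 replicate 1 (0.177). Rel was lost there without Abl.2 replicate 1 (adjusted p = 0.0825) or Abl.3 replicate 1 (0.113), so the count was 1 of 8 without Abl.2 replicate 1 (23.9% of all genes) or Abl.3 replicate 1 (24.2%).

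Multiplying each library's TPM by its shares gives a level for each allele, under the assumption that the reads over SNPs stand for the whole transcript. For Tnfaip3 the levels in Abl.2, Abl.3 and Abl.4 were 102, 11.9 and 20.8 TPM from the paternal allele and 47.4, 9.15 and 14.0 TPM from the maternal allele. Both alleles of Tnfaip3 were therefore higher in Abl.2, by 8.56 times (paternal) and 5.18 times (maternal) over Abl.3. For Nfkb2 the ratio of Abl.2 over Abl.3 was 3.09 for the maternal and 4.10 for the paternal allele, and for Relb it was 3.84 and 4.46. For Rel it was 3.35 and 5.23. Levels of both alleles thus moved the same way in each of these 4 genes, and the paternal ratio was the larger in each. It was also the larger in Nfkb1 and Nfkbie. In Rela (1.32 maternal, 1.30 paternal) and Nfkbia (0.72 and 0.66) the maternal ratio was the larger. The allele ratio tests above cover the difference between the alleles. In edgeR it did not pass for Relb (adjusted p = 0.454), Nfkb1, Nfkbie, Rela or Nfkbia.

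**Figure D4:**
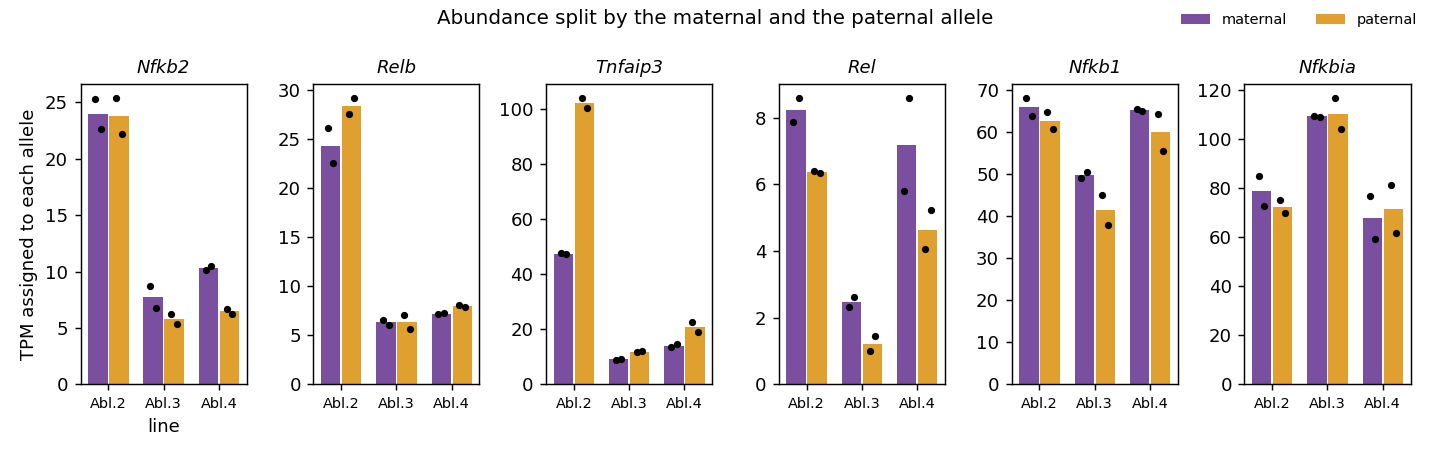
TPM assigned to the maternal and the paternal allele in each line for 6 members, with bars for the mean of 2 libraries and points for the libraries. Each panel has its own axis from 0. Both alleles of Nfkb2, Relb and Tnfaip3 are higher in Abl.2, and the paternal allele of Tnfaip3 reaches 102 TPM there.

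The authors' deposited table of maternal fractions per line gave limits that excluded 0.5 for Tnfaip3 in Abl.2 (0.32, limits 0.3 to 0.34) and Abl.4, for Rel in Abl.3 and Abl.4, for Rela in Abl.2 and Abl.3, and for Nfkb2 in Abl.4. Limits included 0.5 in that deposited table for Tnfaip3 in Abl.3, Rel in Abl.2, Rela in Abl.4, Nfkb2 in Abl.3 and Nfkb1 in Abl.3, each of which passed the edgeR test. The authors' deposited value for Bcl3 in Abl.3 was 0.56 with limits of 0.15 to 0.93.

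Other genes of the pathway were taken from 4 lists. Of 13 tested genes among other I-kB proteins and negative regulators, 5 were higher and 1 lower in Abl.2 than in Abl.3. Between Abl.2 and Abl.4, 1 was higher and 0 lower, and between Abl.3 and Abl.4, 1 was higher and 7 lower in Abl.3. The shares that passed were 46.2%, 7.69% and 61.5% in these pairs, beside 39.8%, 33.5% and 38.1% of all genes. The list's median log2 differences were 0.38, 0.03 and -0.45 in these pairs, beside 0.10, -0.03 and -0.15 over all genes. Nfkbiz, an inducible nuclear I-kB protein, followed the pattern of Rel. It had 23.2 and 23.3 TPM in Abl.2, 9.30 and 8.16 TPM in Abl.3, and 21.2 and 18.8 TPM in Abl.4, with a log2 difference of 1.32 between Abl.2 and Abl.3 (adjusted p = 0.000345). Tnip2, a binding partner of A20, was also lower in Abl.3 (0.89 for Abl.2 against Abl.3, adjusted p = 0.000800). Nfkbid went the way of Nfkbia, with means of 18.7 TPM for Abl.3, 12.0 TPM for Abl.2 and 10.2 TPM for Abl.4 (0.82 for Abl.3 against Abl.4, adjusted p = 0.00166).

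Among 27 kinases, adaptors and ubiquitin ligases, 9 were higher and 2 lower in Abl.2 than in Abl.3. Between Abl.2 and Abl.4, 4 were higher and 2 lower, and between Abl.3 and Abl.4, 1 was higher and 5 lower in Abl.3. These were 40.7%, 22.2% and 22.2% of the list, near the 39.8% of all genes in the first pair and below the 33.5% and 38.1% in the others. The I-kB kinase complex, named here outside the rule for named genes, did not pass in any pair: Ikbkb ran from 70.7 to 76.9 TPM over the 6 libraries, Chuk from 20.2 to 26.0 TPM and Ikbkg from 26.4 to 40.3 TPM. Ikbkg was nearest to passing, at 0.43 for Abl.2 against Abl.3 (adjusted p = 0.0507). It passed there when the filter was raised to 5 TPM (adjusted p = 0.0423), without Abl.3 replicate 2 (0.0424) and in edgeR on summed allelic counts (0.75, adjusted p = 0.000503), which also called it for Abl.2 against Abl.4 (0.56, adjusted p = 0.00323). The list's median log2 differences were 0.27, 0.09 and -0.18 in the 3 pairs. Prkcb, the kinase that links the B cell receptor to NF-kB, had 18.4 and 20.2 TPM in Abl.2, 112.8 and 108.5 TPM in Abl.3, and 95.1 and 93.6 TPM in Abl.4. Its log2 difference was -2.46 between Abl.2 and Abl.3 (adjusted p = 7.88e-06), opposite in direction to Tnfaip3. Tbk1, an I-kB kinase relative on chromosome 10, was higher in Abl.2 than in Abl.3 by 0.88 (adjusted p = 0.000745). Rnf31, part of the linear ubiquitin ligase, was higher in Abl.2 than in Abl.4 by 0.90 (adjusted p = 0.00968), a call lost without Abl.2 replicate 1 (0.0726) or replicate 2 (0.0595).

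Of 8 receptors, 4 had a mean of at least 1 TPM. Tnfrsf13c, the BAFF receptor that feeds the alternative route, was lowest in the line with the most Relb and Nfkb2. It had 13.5 and 12.9 TPM in Abl.2, 56.0 and 51.4 TPM in Abl.3, and 41.9 and 40.8 TPM in Abl.4, with a log2 difference of -1.95 between Abl.2 and Abl.3 (adjusted p = 2.56e-05). Tnfrsf13b, encoding TACI, was highest in Abl.4 (-0.97 for Abl.2 against Abl.4, adjusted p = 0.00206). Tnfrsf1b, a TNF receptor, had a difference of 0.40 between Abl.2 and Abl.3 (adjusted p = 0.0260), a call lost after quantile normalisation (0.182) and without any 1 of the 4 libraries of that pair (0.0957 to 0.136). In all, 2 receptors were higher and 1 lower in Abl.2 than in Abl.3, 0 and 2 against Abl.4, and 1 higher and 2 lower in Abl.3 than in Abl.4, where 39.8%, 33.5% and 38.1% of all genes passed. Median log2 differences of the 4 receptors were 0.07, -0.36 and -0.43.

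Of 26 textbook NF-kB targets, 24 were in the table and 14 were tested. In Abl.2, 6 were higher and 3 lower than in Abl.3, and 6 were higher and 3 lower than in Abl.4. In Abl.3, 5 were higher and 7 lower than in Abl.4. These were 64.3%, 64.3% and 85.7% of the tested targets, beside 39.8%, 33.5% and 38.1% of all genes. The 3 with the largest changes each had a line order of its own. Ltb, the lymphotoxin beta gene, had 41.5 and 36.0 TPM in Abl.2, 15.9 and 14.8 TPM in Abl.3, and 6.80 and 4.23 TPM in Abl.4 (2.63 for Abl.2 against Abl.4, adjusted p = 0.000173). Ccr7, a homing receptor, ran the other way, at 0.61 and 0.43 TPM, 13.4 and 13.5 TPM, and 27.3 and 25.9 TPM (-4.18, adjusted p = 6.28e-06). The chemokine gene Ccl3 was listed at 0 and 0.48 TPM in Abl.3, at 8.19 and 7.99 TPM in Abl.2, and at 51.1 and 51.5 TPM in Abl.4 (adjusted p = 1.61e-05 for Abl.3 against Abl.4). The list's median log2 difference was 0.02 for Abl.2 against Abl.3, -0.01 for Abl.2 against Abl.4 and -0.22 for Abl.3 against Abl.4.

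**Figure D5:**
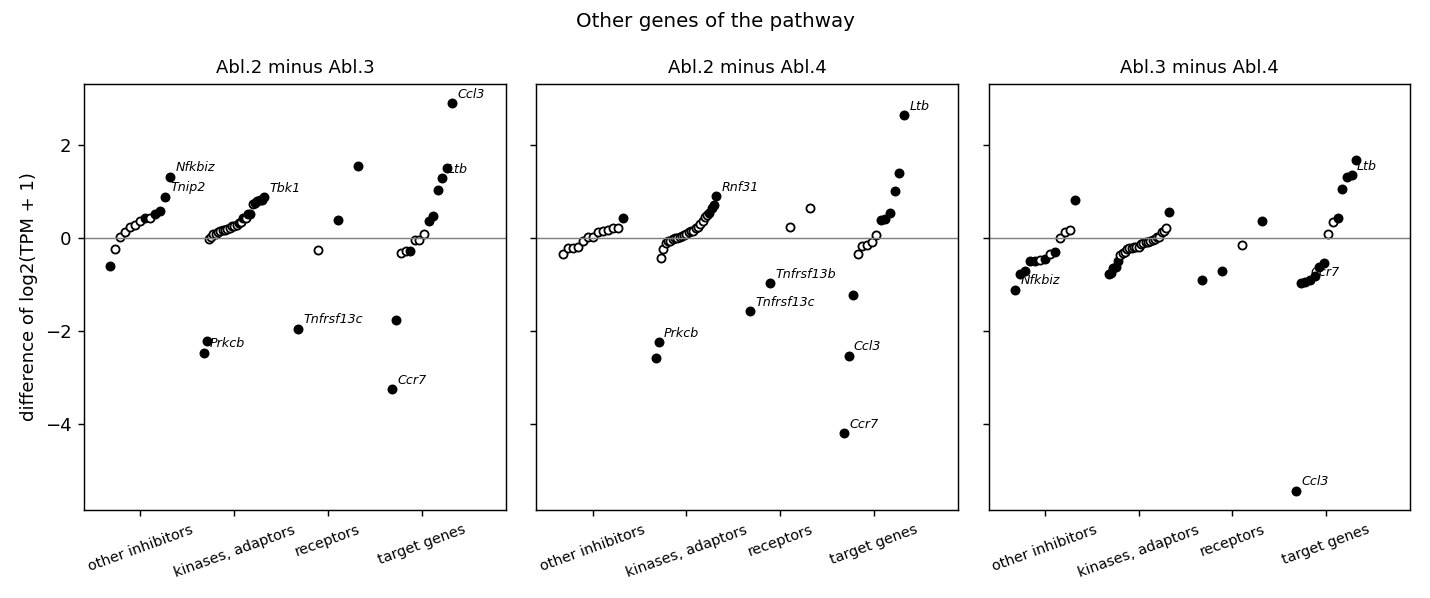
Differences of log2(TPM + 1) between lines for the tested genes of the 4 pathway lists, ordered by value within each list, with filled points for adjusted p below 0.05 and open points otherwise. Most kinases and adaptors lie near 0, Prkcb lies at -2.46 in the panel of Abl.2 minus Abl.3, and the targets spread widely in both directions.

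Some pathway genes outside the 10 had shares close to 0 or 1. In the pairs Abl.2 against Abl.3, Abl.2 against Abl.4 and Abl.3 against Abl.4, 8, 5 and 4 of 22 kinases and adaptors passed the allelic difference test. These were 36.4%, 22.7% and 18.2% of the list, near the 28.4%, 22.3% and 16.5% of all genes. Of 12 targets, 5, 3 and 1 passed in the same pairs. Of 4 receptors, 2 passed in each pair with Abl.2, and of 9 other inhibitors at most 1 passed in any pair. Prkcb was almost wholly maternal in Abl.2, at 0.998, and near even in Abl.3 (0.519) and Abl.4 (0.542). Tnfrsf1b likewise had 0.998 in Abl.2 against 0.491 in Abl.3. The X-linked Irak1 and Ikbkg had shares of 0.999 and 0.998 in the male line Abl.3. In the female lines they had 0.00146 and 0.00315 (Abl.2), and 0.000644 and 0.00153 (Abl.4). A male carries only the maternal X, so a share near 1 in Abl.3 was set in advance by sex. Both genes are among the kinases and adaptors that passed in the pairs with Abl.3. Across the 4 lists, 12 genes had a called share difference of at least 0.2 in some pair.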

How the data were processed

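RNA-seq libraries were made with the SMART-seq v4 kit, per the labels' protocols, which carries no molecular identifiers. The submitters' processing notes name STAR 2.5.4a, SAMtools, GATK and DESeq2. The deposited abundance table holds TPM, and the deposited allele table holds maternal and paternal counts per gene, per the file headers. The authors' allelic imbalance table gives a fraction per line with limits, per the file headers; its confidence level was not given in the sources used here. Positions matched GENCODE M21 (GRCm38) starts for 98.7% of 35412 genes.

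Abundance was tested with limma 3.58.1 (trend) in R 4.3.3 on log2(TPM + 1), over 11003 genes whose mean reached 1 TPM, which understates changes of low genes. Allelic counts were tested with edgeR 4.0.16 (quasi-likelihood; an intercept per library, an allele effect per line) for 8702 autosomal and X genes with at least 20 counts in each of 6 libraries. All p-values are Benjamini-Hochberg adjusted over all genes tested, with a threshold of 0.05. Groups and replicate numbers come from the sample titles. Deviations of same-numbered libraries from their line means were weakly correlated in abundance in all 3 pairs of lines (0.104 to 0.187). In share they were not (-0.056 to 0.015). The numbers were therefore taken to pair libraries in abundance only. The main tests did not use this pairing, which enters only through the replicate block among the alternatives. Replicates of a line differed beyond counting error (chi-square per degree of freedom 11.6 to 19.8). The scripts were tested on simulated data. Members, lists and promoter motifs were chosen with earlier results of these data known. Named pathway genes were the 3 with the largest called change per list at a mean of at least 5 TPM, and the 4 with the largest called share difference. A gene of the kinase and adaptor list is in its counts and medians but is not reported here by name. Alternatives were other pseudocounts, filters, coverage minimums, normalisations and tools (DESeq2 1.42.0), a replicate block, and leaving out each library. A fit without 1 library leaves its line with 1 library, so the spread then comes from the other lines alone. Calls lost or kept in such fits rest on that spread.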

Additional observations from a re-analysis of the deposited data

Results flagged for a closer look

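Of the 8 members tested, 3 differed between Abl.2 and Abl.3 (28.4% of all genes did) and 2 of these between Abl.2 and Abl.4 (22.3%) in maternal share by the test of the difference itself (edgeR, quasi-likelihood, Benjamini-Hochberg adjusted). The difference in log2 allele ratio for Abl.2 against Abl.3 was -0.72 for Tnfaip3, -0.66 for Rel and -0.40 for Nfkb2. For Abl.2 against Abl.4 it was -0.54 for Tnfaip3 and -0.66 for Nfkb2. Between Abl.2 and Abl.3 the calls of Rel and Nfkb2 were lost without Abl.2 replicate 1 or Abl.3 replicate 1, and that of Nfkb2 also without Abl.2 replicate 2 and in DESeq2. In each case the maternal share was lower in both Abl.2 libraries than in both libraries of the other line. These genes were picked by the test of that difference, so this adds no support to it. For Tnfaip3, 82.8% and 81.9% of the tested genes on its chromosome also passed in these pairs.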

How the results depend on the processing

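With 2 libraries of 1 clone a line, the tests cover only the spread between those libraries, and TPM give no depth. Relb, Nfkb2 and Tnfaip3 kept their abundance calls against Abl.2 under all 12 alternatives, as did Rel in both pairs with Abl.3. Without 1 library each, counts of members with an abundance difference ranged from 5 to 9 (Abl.2 against Abl.3), 3 to 5 (Abl.2 against Abl.4) and 3 to 4 (Abl.3 against Abl.4), while 22.4% to 41.3%, 17.9% to 30% and 21.3% to 33.5% of all genes passed. Counts of members with unequal alleles ranged from 1 to 3 in Abl.2, 3 to 5 in Abl.3 and 3 to 4 in Abl.4 (all genes: 36.8% to 50.9%, 31.3% to 47.1% and 31.6% to 39%). Counts with an allelic difference ranged from 1 to 3, stayed at 2, and ranged from 0 to 1 (all genes: 23.7% to 29.9%, 18.9% to 21.9% and 11.9% to 15.2%). Other alternatives left every count within 1.5 times its value.

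The labels tie no replicate number to a shared batch or day. With the replicate block, 9, 6 and 4 members passed for abundance (47.4%, 41.9% and 47.1% of all genes), 2, 4 and 4 for unequal alleles (43.6%, 38.7% and 33.9%), and 3, 2 and 0 for the difference (27.6%, 21.8% and 15.4%). The block turned the log2 allele ratio of Nfkb1 in Abl.2 to -0.0088, gave Nfkb1 in Abl.3 an adjusted p of 0.117 and Rel in Abl.2 one of 0.0603, and gave Rela an adjusted p of 0.0446 in abundance between Abl.2 and Abl.4. It changed no other call among the results recomputed with it.

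Signs changed in values that had not passed. At a null set by allele totals, log2 allele ratios in Abl.2 became -0.048 (Nfkb1), -0.11 (Nfkb2), -0.00085 (Nfkbia) and -0.10 (Nfkbie), and that of Relb in Abl.3 -0.013. Abl.3 against Abl.4 became 0.054 for Rela on summed counts and 0.034 for Relb after quantile normalisation. For Chuk and Ikbkb, quantile normalisation gave -0.086 and -0.083 (Abl.2 against Abl.3) and 0.055 and 0.019 (Abl.3 against Abl.4), and summed counts gave -0.061 and -0.10, and 0.099 for Ikbkb in the latter pair. Ikbkg became 0.17 there after quantile normalisation. The cause was not tested. Without 1 library each, log2 abundance differences crossed 0 for Chuk between Abl.2 and Abl.4 (-0.23 to 0.021), for Ikbkg between Abl.3 and Abl.4 (-0.22 to 0.11), for Nfkb1 (-0.014 to 0.092) and Nfkbia (-0.066 to 0.32) between Abl.2 and Abl.4 and for Nfkbie between Abl.3 and Abl.4 (-0.035 to 0.25). Log2 allele ratios crossed 0 for Nfkb2 in Abl.2 (-0.0069 to 0.031), for Relb (-0.10 to 0.11) and Nfkbia (-0.092 to 0.066) in Abl.3, and for Nfkbie in Abl.2 (-0.088 to 0.13), Abl.3 (-0.029 to 0.26) and Abl.4 (-0.16 to 0.17). Differences in that ratio crossed 0 between Abl.2 and Abl.3 for Rela (-0.081 to 0.12) and Nfkbie (-0.24 to 0.046). They did so between Abl.2 and Abl.4 for Nfkb1 (-0.16 to 0.047), Rela (-0.025 to 0.17), Relb (-0.22 to 0.073) and Nfkbie (-0.15 to 0.18). Between Abl.3 and Abl.4 they did so for Rela (-0.010 to 0.12), Nfkbia (-0.017 to 0.14) and Nfkbie (-0.053 to 0.28).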

Other observations

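A pair of pathway genes outside the naming rule was singled out after their values were seen. Map3k14, which encodes NIK, the kinase that drives Nfkb2 processing, had 9.51 and 8.77 TPM in Abl.2, 6.07 and 3.60 TPM in Abl.3, and 7.14 and 5.28 TPM in Abl.4. The Abl.2 libraries were highest. The difference from Abl.4 was 0.50 and did not pass in limma (adjusted p = 0.149), though it did in edgeR on summed allelic counts (0.59, adjusted p = 0.0118), and it was 0.32 without Abl.4 replicate 2 (adjusted p = 0.470). The difference from Abl.3 was 0.83 (limma, adjusted p = 0.0319). That call was lost after quantile normalisation (adjusted p = 0.0888), with no filter (0.0882), and without Abl.2 replicate 1 (0.146), Abl.2 replicate 2 (0.115) or Abl.3 replicate 2 (0.52, adjusted p = 0.141). Its maternal share was 0.545 in Abl.2 but 0.205 in Abl.3 and 0.190 in Abl.4, and edgeR's adjusted p for the difference was 2.00e-07 against Abl.3 and 1.34e-07 against Abl.4. Cd40, a receptor that signals through both routes, had 8.30 and 7.35 TPM in Abl.2, 2.20 and 1.80 TPM in Abl.3, and 3.63 and 5.81 TPM in Abl.4 (1.56 for Abl.2 against Abl.3, adjusted p = 0.00209, kept under all 11 alternatives run, with 2.39 in edgeR on summed allelic counts). For Abl.2 against Abl.4 its difference of 0.65 did not pass (adjusted p = 0.0582), but passed after quantile normalisation (0.0249), in edgeR on summed allelic counts (0.99, adjusted p = 0.0135) and without Abl.4 replicate 2 (0.0240). Without Abl.4 replicate 1 it was 0.37 (adjusted p = 0.162). For Abl.3 against Abl.4 it was -0.91 (adjusted p = 0.0175; -1.40 in edgeR), a call lost with no filter (0.0509), after quantile normalisation (0.0610), and without Abl.3 replicate 1 (0.0602), Abl.3 replicate 2 (0.0950) or Abl.4 replicate 2 (0.0558).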
